A study of Arabidopsis thaliana with 47 samples.

Results

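The 4 genes described here are MOM1 (AT1G08060) and the methyl-CpG-binding domain genes MBD5 (AT3G46580), MBD6 (AT5G59380) and MBD7 (AT5G59800) of Arabidopsis thaliana. They were chosen by their identifiers, as 4 of the 33602 genes listed in each RNA-seq file, because their products act on or after DNA methylation, the step at which MORC ATPases are also placed. The study asked how MORC proteins take part in RNA-directed DNA methylation (RdDM), and 31 of its 47 listed samples are used here. They are 9 RNA-seq libraries and 22 lists of ChIP-seq peaks.

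RNA-seq was labelled as hex, as nrpe1 and as wild type (Columbia-0), with 3 libraries each, per the labels from floral tissue of plants aged 5 to 6 weeks. The methods of the study give a younger age for the RNA-seq plants. The labels also give an age of 5 to 6 weeks for all ChIP plants. For ChIP the methods name floral tissue. Plants named hex carry mutations in MORC1 and MORC2 as well as in MORC4, MORC5, MORC6 and MORC7, and nrpe1 plants lack the largest subunit of RNA polymerase V. MORC7-FLAG and MORC4-FLAG are tagged proteins driven by their own promoters in the matching morc7 or morc4 mutant. MORC7-FLAG was immunoprecipitated in the nrpd1 (2 lists), nrpe1 (2), nrpd1 nrpe1 (2), dms3 (3) and met1 (1) mutants and without these mutations (3, called wild type below). For the RdDM mutants, per the study's methods, plants could hold the transgene on one or both chromosomes. In 1 further line a fusion of DMS3 to the zinc finger ZF108, with an HA tag and the UBQ10 promoter, was added to MORC7-FLAG and precipitated once by each tag. MORC4-FLAG had 2 lists, FLAG ChIP of plants without a tag 2, HA ChIP without ZF108-DMS3 1, and RNA polymerase II (Pol II) 1 in hex and 1 in wild type.

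In plants, methylated cytosines in CG context are read by MBD proteins. MBD5 and MBD6 bind methylated CG sites and silence a set of transposons and genes together. MBD7 binds densely methylated DNA but is known for the opposite role, since it brings a histone acetyltransferase complex with IDM1 and IDM2 that helps the demethylase ROS1 remove methylation. MOM1, a plant protein related to chromatin remodellers, keeps transposons silent without a large effect on their methylation, in a complex with the SUMO ligase-like proteins PIAL1 and PIAL2. RNA polymerases IV (largest subunit NRPD1) and V (NRPE1), with the structural protein DMS3, make and use the RNAs of RdDM, and MET1 copies CG methylation after replication.

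The labels of the RNA-seq libraries were checked first. MORC1 had 9.17, 8.31 and 7.70 TPM (a level that allows for transcript length and for the size of the library) in the libraries labelled hex, 2.06, 2.04 and 1.77 TPM in those labelled nrpe1, and 7.99, 7.42 and 8.08 TPM in wild type. NRPE1 had 0.62, 0.51 and 0.50 TPM in the libraries labelled hex, 1.73, 1.08 and 1.43 TPM in those labelled nrpe1, and 1.74, 1.27 and 1.73 TPM in wild type. MORC2, MORC6 and MORC7 were, like MORC1, lowest in the libraries labelled nrpe1. MORC7 had 0.42 to 0.57 TPM there, against 1.93 to 3.30 TPM in wild type. MORC4 ran the other way, with 12.35, 12.70 and 13.82 TPM in the libraries labelled nrpe1, against 4.82, 4.40 and 5.68 TPM in wild type, and MORC5 was at most 0.24 TPM in any library. RNA of 4 of the 6 MORC genes was thus low in the libraries labelled nrpe1, and NRPE1 RNA in those labelled hex, against both labels. The table of labelled nrpe1 replicate 2 also stands a further time in its file, with equal values, under a heading that names hex. For these reasons the groups are called by their labels and no direction is assigned to either mutation. The tissue label was not borne out either. Of 5 flower genes, AP1, AP3 and PI never passed 0.39 TPM, AG lay between 0.98 and 2.11 TPM and SEP3 between 0.18 and 1.33 TPM, while the leaf genes RBCS1A and LHCB1.3 reached 13522 to 27636 and 40308 to 46040 TPM. Labelled nrpe1 replicate 3 stood apart, with 29.24 TPM of VGD1 and 12.18 TPM of PPME1, both pollen genes, against at most 0.70 and 0.16 TPM in the other 8 libraries. AP3 and PI were also highest in that library, though low, at 0.32 and 0.39 TPM against at most 0.09 and 0.11 TPM elsewhere. The root gene BGLU21 was at 0 in every library. Neither kind of file holds read totals, so depth is unknown. Nothing in the labels says that replicates came from separate plants, so p-values measure the spread between these libraries only.

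All 4 genes were expressed at low, even levels. MBD5, a reader of CG methylation, had 6.53, 4.99 and 5.76 TPM in the libraries labelled hex, 7.0, 6.71 and 6.88 TPM in those labelled nrpe1, and 5.87, 6.27 and 4.88 TPM in wild type. The libraries labelled nrpe1 were all above every other library, while the labelled hex and wild-type libraries overlapped. MBD6, its partner in silencing, had 5.10, 4.79 and 5.06 TPM in the libraries labelled hex, 6.40, 6.57 and 5.41 TPM in those labelled nrpe1, and 6.00, 4.11 and 5.27 TPM in wild type. Here the libraries labelled nrpe1 were above those labelled hex, and wild type overlapped with both.

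MBD7, the link to demethylation, had 4.07, 4.09 and 3.80 TPM in the libraries labelled hex, 4.22, 3.64 and 3.84 TPM in those labelled nrpe1, and 3.31, 3.70 and 4.24 TPM in wild type. The 3 groups overlapped throughout. MOM1 had 3.94, 4.35 and 3.85 TPM in the libraries labelled hex, 3.91, 4.27 and 5.41 TPM in those labelled nrpe1, and 4.17, 3.60 and 4.06 TPM in wild type. Its highest value came from labelled nrpe1 replicate 3, the library with pollen RNA, and the part of that RNA in this value was not tested.

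**Figure D1:**
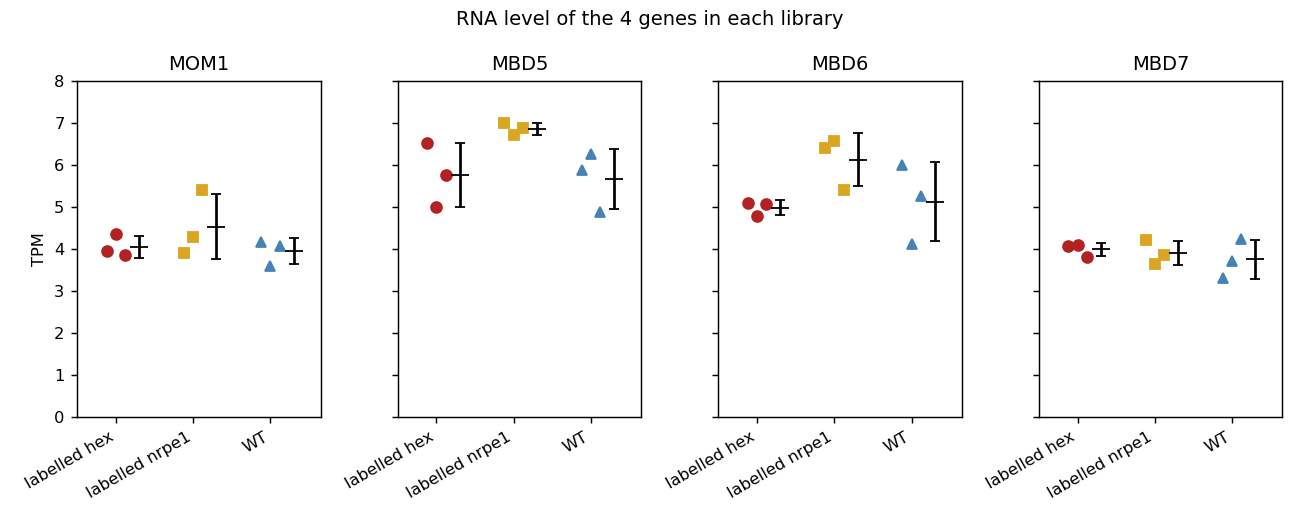
RNA level (TPM) of MOM1, MBD5, MBD6 and MBD7 in each of the 9 libraries, grouped as labelled hex, labelled nrpe1 and wild type (WT), with the mean and SD (n = 3 each) in black beside the points. All values lie between 3.31 and 7.0 TPM, and the 3 points of MBD5 in the libraries labelled nrpe1 lie above its other 6.

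By their means over 9 libraries, the levels ran from MBD5 (6.10 ± 0.782 TPM, SD) through MBD6 (5.41 ± 0.789) and MOM1 (4.17 ± 0.517) to MBD7 (3.88 ± 0.306). TPM allows for length, so these levels can be set side by side. Neighbours in this order were not separated by their spread. MBD5 was above MBD6 in 7 of 9 libraries, MBD6 above MOM1 in 8 and MOM1 above MBD7 in 5, and each such pair overlapped in range. MBD5 and MBD7 did separate, with a lowest MBD5 value of 4.88 TPM against a highest MBD7 value of 4.24 TPM. Among the 17459 genes tested, the mean levels stood at percentile 33.9 for MBD5, 30.9 for MBD6, 24.7 for MOM1 and 23.1 for MBD7. The longest identical run between any pair of the 4 genes was 12 bases, so they hold no near-identical stretch that could share reads.

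To ask whether either mutant changed these genes, all 9 libraries were fitted with limma on log2(TPM + 1), and a gene was called at an adjusted p below 0.05 (Benjamini-Hochberg over all genes tested) with a change of at least 2-fold on that scale. All 4 genes passed the filter on low values, by every group and not by one alone. In the libraries labelled hex against wild type, 0 of 4 were called, where 0.321% of all genes tested were, and 0 of 4 had an unadjusted p below 0.05, against 4.74% of all genes. Their log2 fold changes were 0.02 for MBD5 (SE 0.11), -0.02 for MBD6 (SE 0.13), 0.07 for MBD7 (SE 0.10) and 0.03 for MOM1 (SE 0.12), with limma adjusted p-values between 0.935 and 0.981. No member separated these groups, where 16.0% of all genes tested did. The 95% intervals of the 4 genes reached down to 0.808-fold and up to 1.23-fold, on the log2(TPM + 1) scale.

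In the libraries labelled nrpe1 against wild type, 0 of 4 genes were called, where 3.94% of all genes tested were, and again 0 of 4 had an unadjusted p below 0.05, against 44.3% of all genes. MBD5 was 0.24 higher on the log2 scale (SE 0.11, limma adjusted p = 0.131) and higher in 3 of 3 libraries without overlap. Such separation was found for 49.0% of all genes tested, so it does not set MBD5 apart. MBD6 differed by 0.23 (SE 0.13, limma adjusted p = 0.191), MOM1 by 0.15 (limma adjusted p = 0.324) and MBD7 by 0.05 (limma adjusted p = 0.731). Without labelled nrpe1 replicate 3 the difference of MOM1 was 0.04. The intervals of the 4 genes ran from 0.881-fold to 1.43-fold. Their median difference was 0.19, beside 0.08 over all genes tested. The count of all genes called here, 688, rested on single libraries and was 38 without labelled nrpe1 replicate 3 and 32 without replicate 2.

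Between the libraries labelled hex and those labelled nrpe1, 0 of 4 genes were called, where 0.596% of all genes tested were, and 0 of 4 had an unadjusted p below 0.05, against 28.0% of all genes. MBD5 and MBD6 were lower in every library labelled hex, by -0.22 (SE 0.11) and -0.25 (SE 0.13) on the log2 scale, each with a limma adjusted p of 0.216. Groups without overlap were found for 20.0% of all genes tested. MOM1 differed by -0.12 and MBD7 by 0.03. The 4 intervals reached from 0.691-fold to 1.19-fold, so a 2-fold difference lay outside the interval of each gene in all 3 comparisons. The comparisons share libraries and are not independent of each other.

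**Figure D2:**
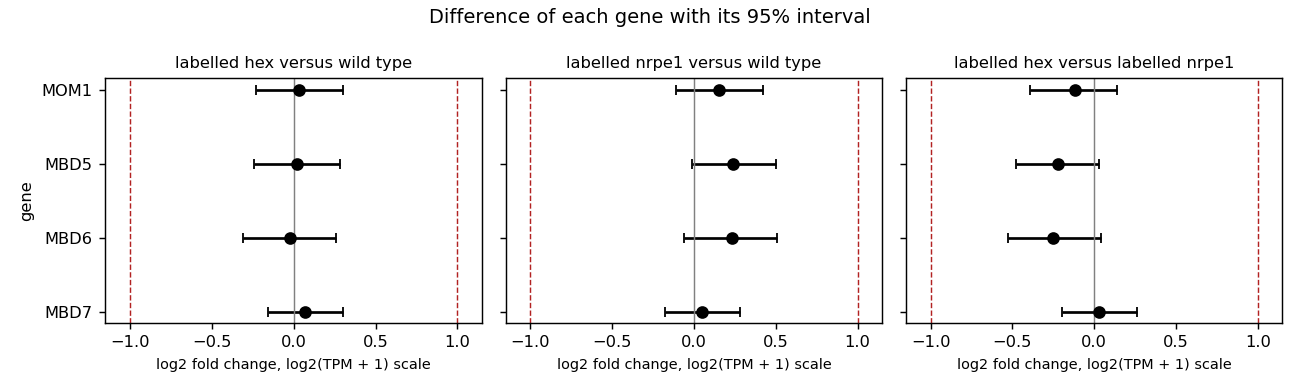
Difference of each gene on the log2(TPM + 1) scale (points) with its 95% interval (bars) in the 3 comparisons; grey lines mark no difference and dashed red lines a 2-fold change. Every interval lies inside the dashed lines, and the lowest bound is -0.53 and the highest 0.51.

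The genes whose pattern over the 9 libraries was most like each member were found by the root mean square difference of centred log2(TPM + 1). For MOM1 they were AT2G38950, annotated as a jumonji family protein, and AT1G32530, a RING/U-box protein, at 0.032 and 0.033. MBD7 was closest to QUL1 (0.038) and AT5G24750 (0.048), MBD5 to AT3G46930 (0.066) and ARAB-1 (0.068), and MBD6 to DPMS1 (0.077) and AT2G01090 (0.079). No likeness was close in rank terms, since 1488 genes lay within 0.1 of MOM1, 786 of MBD7, 86 of MBD5 and 33 of MBD6. No member was among the 2 nearest genes of another.

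The MBD family shows how typical the 3 readers were. Of 13 annotated MBD genes, MBD3 and MBD12 were listed at 0 in every library and 11 were tested, and 0 of 11 were called in any of the 3 comparisons. At 61.62 to 81.53 TPM, MBD10 was the most abundant, and MBD13 (2.49 to 3.63 TPM) had the lowest mean of the expressed ones, so MBD5, MBD6 and MBD7 sat in the lower part of the family. MBD2 had 16.40, 19.96 and 21.48 TPM in the libraries labelled nrpe1, against 14.83, 13.87 and 14.43 TPM in wild type, a difference of 0.39 on the log2 scale (SE 0.10, limma adjusted p = 0.0393) that missed the 2-fold minimum. That adjusted p was 0.113 without labelled nrpe1 replicate 3. MBD11 had 14.38, 14.92 and 30.96 TPM in the libraries labelled nrpe1, against 12.48, 13.66 and 14.57 TPM in wild type. Its difference of 0.45 (SE 0.25, limma adjusted p = 0.188) came from the library with pollen RNA and was 0.11 without it. MBD4, with a difference of 0.42 in the same comparison, had a limma adjusted p of 0.15. The median difference over the 11 tested genes was 0.02 for labelled hex against wild type, 0.23 for labelled nrpe1 against wild type and -0.12 between both labels, beside 0.02, 0.08 and -0.05 over all genes tested.

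**Figure D3:**
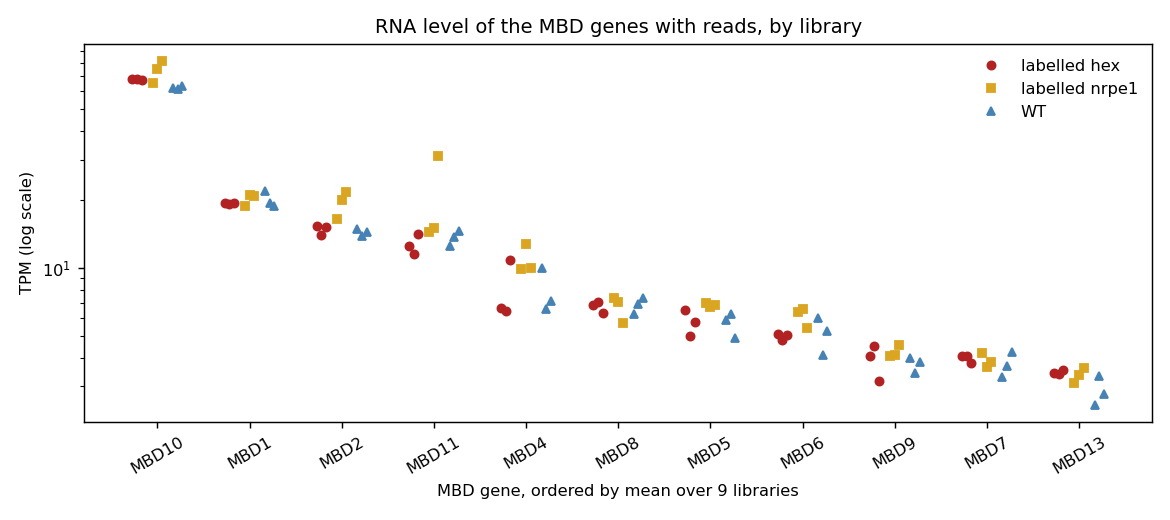
RNA level (TPM, log scale) of the 11 MBD genes with reads, ordered by their mean over 9 libraries, with labelled hex, labelled nrpe1 and wild-type (WT) libraries as separate points. MBD10 stands highest at 61.62 to 81.53 TPM, and the single high point of MBD11, 30.96 TPM, is labelled nrpe1 replicate 3.

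Partners of these proteins were taken from lists of genes with a known link, counted where the annotation or the paper names them. The list for MOM1 and the list for the MBD proteins each held 7 genes, of which 3 were so named. Of the MOM1 partners, PIAL1, PIAL2 and CPL2 were tested and 0 of 3 were called in any comparison. PIAL2 had 4.25, 4.67 and 4.37 TPM in the libraries labelled hex, 4.27, 4.36 and 4.94 TPM in those labelled nrpe1, and 3.53, 3.62 and 3.50 TPM in wild type. Both mutant labels lay above wild type, by 0.25 (SE 0.09, limma adjusted p = 0.772) and 0.28 (SE 0.09, limma adjusted p = 0.0493), short of the 2-fold minimum. Groups without overlap were found for 16.0% and 49.0% of all genes tested in these comparisons. Over the alternative settings the second limma adjusted p ran from 0.031 to 0.138. Of the named MBD7 partners, IDM1 and ROS1 were tested, and IDM2, at most 0.22 TPM, did not pass the filter. None of the listed genes left out was called in any comparison. In labelled nrpe1 against wild type, AT1G20870 of the MBD list differed by -0.77 (SE 0.18, limma adjusted p = 0.0386). AT1G43770 of the MOM1 list differed by 0.52 (SE 0.14, limma adjusted p = 0.0392). Both were short of the 2-fold minimum.

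ROS1, the DNA demethylase that MBD7 is linked to and whose own transcription is known to need RdDM, fell in the libraries labelled hex. It had 0.96, 0.40 and 0.97 TPM there, 12.07, 13.36 and 16.38 TPM in the libraries labelled nrpe1, and 10.63, 7.65 and 8.68 TPM in wild type. The libraries labelled hex were below all others. The difference was -2.50 on the log2 scale against wild type (SE 0.17, limma adjusted p = 0.00016) and -3.08 against the libraries labelled nrpe1 (SE 0.17, limma adjusted p = 3.04e-05). ROS1 was 0.58 higher in the libraries labelled nrpe1 than in wild type (SE 0.17, limma adjusted p = 0.0455), which did not reach 2-fold. Over the alternative settings that limma adjusted p ran from 0.021 to 0.141. MBD7 itself showed no such difference between the same libraries, at 0.07 and 0.03 for the first 2 of these comparisons. The libraries labelled hex are those in which NRPE1 RNA was lowest, and a link between NRPE1 and ROS1 RNA was not tested.

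For the ChIP lists, only peaks with a fold enrichment of more than 2 and a q value under 0.01 were counted, and one was near a gene when the gap between them was at most 1 kb. A MORC7 region is a merged interval with peaks in at least 2 of the 3 wild-type MORC7-FLAG lists, and there were 6424. Such a region lay within 1 kb of 2 of the 4 genes, MBD5 and MBD6, where 25.4% of 32835 positioned genes had one. A region present in all 3 lists lay near MBD5 alone, where 12.3% of genes had one. The deposited lists are 1 per library and give no read counts, so these results are descriptions without a test. Per the methods of the study, MORC7 ChIPs were pooled for peak calling, so the regions used here are not those pooled calls.

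MBD5 lies at chr3:17148232-17149597 (TAIR10) on the plus strand. Its MORC7 region, chr3:17146793-17147941, lay upstream, between the gene and AT3G46570, a glycosyl hydrolase gene on the minus strand whose 5′ end it touches and which was at 0 TPM in all 9 libraries. The wild-type MORC7 peaks had fold enrichments of 4.52, 2.73 and 6.65, with summits 850, 857 and 904 bp before the start of MBD5. All 3 lists thus placed the summit within 54 bp. Replicate 2 had a further peak over the start of MBD5 itself, chr3:17148160-17148312, with a fold enrichment of 2.33, where replicates 1 and 3 listed none. In the 3 lists 27.3%, 23.4% and 29.2% of all genes had a peak within 1 kb. By fold enrichment the upstream MBD5 peaks stood at percentiles 94.7, 77.7 and 95.3 of their own lists. These ranks are among all nuclear entries of a list, also those below the threshold. The 300 bases centred on the median summit, chr3:17147226-17147525 on the plus strand, are shown because this is the site bound in every wild-type list. CG dinucleotides, the sites that MBD proteins read when methylated, are in capitals (RefSeq, TAIR10.1).
MBD5 upstream: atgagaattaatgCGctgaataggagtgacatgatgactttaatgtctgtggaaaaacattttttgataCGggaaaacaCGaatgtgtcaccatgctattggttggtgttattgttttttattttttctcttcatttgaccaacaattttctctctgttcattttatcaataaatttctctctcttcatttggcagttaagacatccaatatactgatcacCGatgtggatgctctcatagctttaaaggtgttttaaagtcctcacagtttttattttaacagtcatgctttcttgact

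This stretch holds 4 CG dinucleotides and has 33.3% G and C. At least 4 were present in 77.9% of windows of the same length and distance upstream of all genes (median 6), and in 67.8% of windows at the middle of all MORC7 regions (median 5). CG reads the same on both strands. The site is thus not rich in CG. Methylation was not analysed here, so whether these cytosines are methylated is not shown.

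In the mutants the same peak was found in some lists and not in others. The nrpe1 lists had it at fold enrichments of 4.56 and 2.59, against 4.52, 2.73 and 6.65 in wild type. Neither nrpd1 list had a peak past the threshold, and replicate 2 listed one at 1.77. In nrpd1 nrpe1 it was listed at 2.70 in replicate 1 and not in replicate 2. For dms3 the values were 3.48 in replicate 1, none in replicate 2 and 1.86, below the threshold, in replicate 3. The met1 list had 2.02, just past the threshold. This makes 4 of 9 lists of RdDM mutants with a peak within 1 kb of MBD5, where 21.7% and 24.3% of all genes had one in the nrpd1 lists, 17.2% and 22.5% in the nrpe1 lists, 21.1% and 11.9% in the nrpd1 nrpe1 lists, and 18.0%, 27.5% and 19.1% in the dms3 lists. In met1 the share of genes was 22.3%.

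By genotype, the peak passed the threshold in 2 of 2 nrpe1 lists, 0 of 2 nrpd1 lists, 1 of 2 nrpd1 nrpe1 lists, 1 of 3 dms3 lists and the 1 met1 list, against 3 of 3 wild-type lists. With so few lists of each, differences between genotypes were not tested. Of the 2732 MORC7 regions found in all 3 wild-type lists, 79.7% and 81.0% had a peak in the nrpd1 lists, 86.0% and 92.8% in the nrpe1 lists, 85.0% and 57.3% in the nrpd1 nrpe1 lists, and 84.5%, 95.2% and 87.1% in the dms3 lists. The dms3 list with the highest share, replicate 2, was one that lacked the MBD5 peak.

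In the plants with ZF108-DMS3, MORC7-FLAG had its upstream peak at a fold enrichment of 4.81, where 32.1% of genes had a peak within 1 kb. MORC4-FLAG replicate 2 had 2 peaks there (3.34 and 2.14) and replicate 1 none, beside 19.2% and 6.24% of genes with a peak in these lists. The lists without a tag had no peak of any strength within 2 kb of MBD5, where 426 and 932 of the 32835 positioned genes had one past the threshold within 1 kb. HA ChIP of ZF108-DMS3, whose peaks lay near 50.9% of all genes, was strongest inside and past the gene, at chr3:17148792-17150097 with a fold enrichment of 5.09, and listed the upstream site at only 1.80. The HA list without ZF108-DMS3 had none, and held a peak near 0.0274% of genes. Thus the DMS3 fusion and MORC7 had their strongest peaks on different sides of the MBD5 start.

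**Figure D4:**
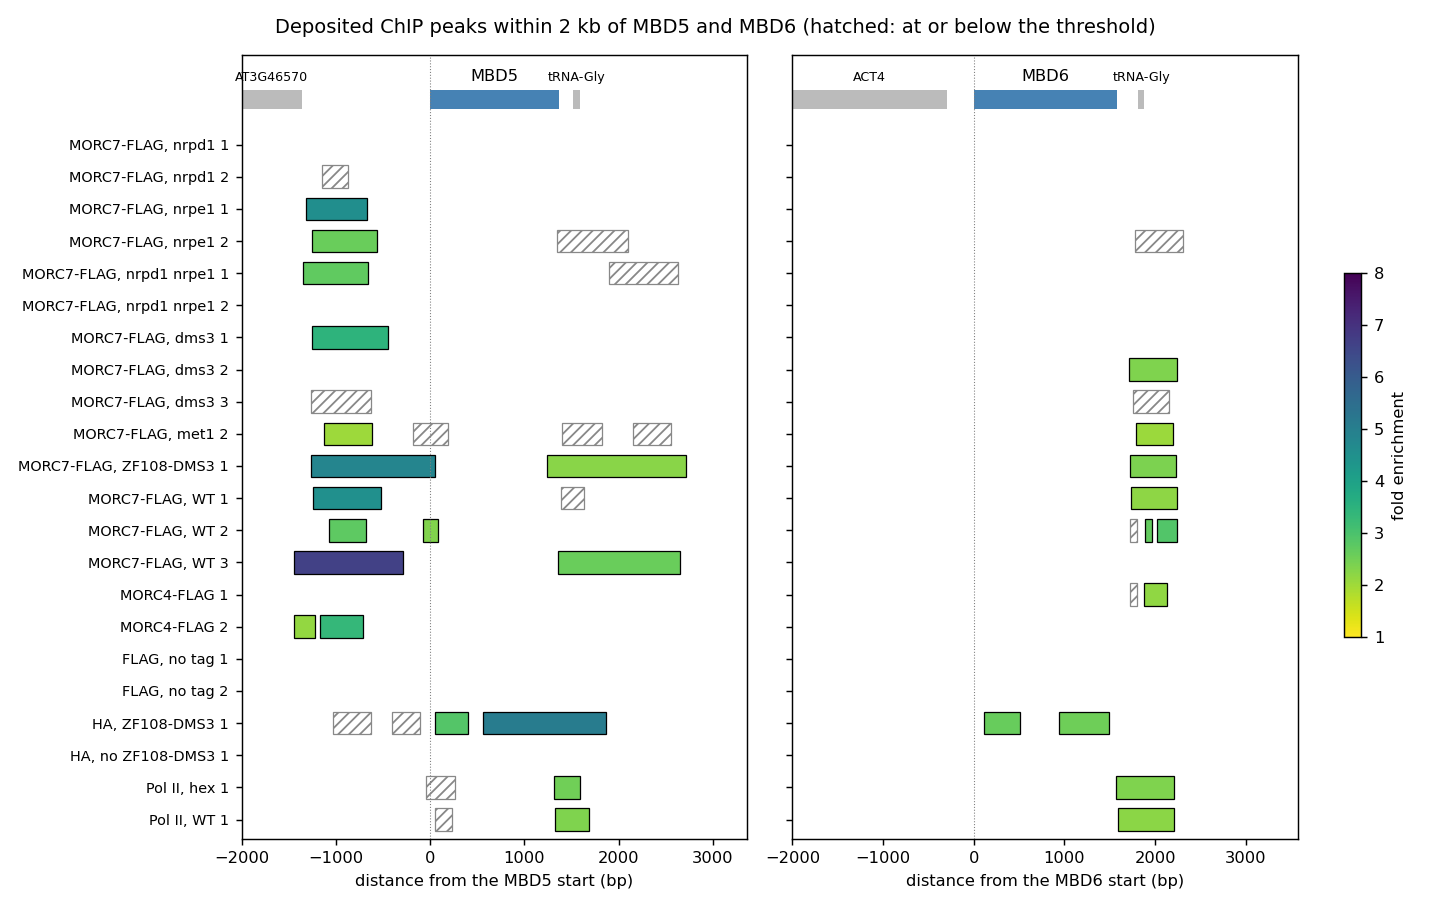
Deposited ChIP peaks within 2 kb of MBD5 (left) and MBD6 (right), as distance in bp from each gene's start, 1 row per list, coloured by fold enrichment (hatched where at or below the threshold), with the gene in blue and its neighbours in grey above. The peaks of the 3 wild-type (WT) MORC7-FLAG lists stack 850 to 904 bp before the start of MBD5. At MBD6 the peak of replicate 1 lies over the tRNA-Gly gene and replicate 3 has none. Those of replicate 2 lie on both sides of the tRNA-Gly gene, and the one on the MBD6 side is below the threshold.

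MBD6 lies at chr5:23952132-23953707 (TAIR10) on the plus strand, between the actin gene ACT4 and a tRNA-Gly gene, AT5G59385, that begins 234 bp after it. Its MORC7 region, chr5:23953864-23954377, lay over that tRNA gene and not over MBD6. Replicate 1 had 1 peak there with a fold enrichment of 2.20, replicate 2 had 2 of 2.69 and 2.90, and replicate 3 had none, so the region rests on 2 of 3 lists. The summits, chr5:23954134 in replicate 1 and chr5:23954057 and chr5:23954274 in replicate 2, all lay past the tRNA gene. Of these peaks only that of replicate 1 overlapped the tRNA gene. MBD5 has the same neighbour. The tRNA-Gly gene AT3G46585 begins 154 bp after MBD5, and both tRNA genes are printed to show that they are copies. Capitals mark GGTTCGA, the core of box B, part of the internal promoter of tRNA genes (RefSeq, TAIR10.1, both on the plus strand, chr3:17149752-17149823 and chr5:23953942-23954013).
AT3G46585: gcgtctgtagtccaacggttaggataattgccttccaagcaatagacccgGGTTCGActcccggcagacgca
AT5G59385: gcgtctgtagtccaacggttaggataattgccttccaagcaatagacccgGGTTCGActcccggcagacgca

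The 72 bases are identical, with 0 differences, and 12 annotated tRNA genes share this sequence. The motif was found at bases 51 to 57, on the strand of the gene, and is present on that strand in 379 of 625 nuclear tRNA genes (60.6%) and on the other in 46. Both copies also had the same TPM in each library, between 0 and 0.44, so RNA reads of these copies cannot be told apart. In the ChIP data the authors kept reads with 1 perfect match, and a read that lies wholly inside such a copy matches in 12 places. When deposited peaks below the threshold were included, those around AT5G59385 in MORC7 replicate 2 left a gap of 80 bases. It holds all 72 bases of the tRNA gene, and in MORC4 replicate 1 a gap of 70 bases holds 64 of them. The peak before the gap missed the threshold in both lists. Its fold enrichment was 1.91 in MORC7 replicate 2, and 2.08 with a q value not under 0.01 in MORC4 replicate 1. Whether the repeated sequence caused these gaps was not tested.

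Beyond the wild-type lists, MORC4 replicate 1 (2.16), dms3 replicate 2 (2.35), met1 (2.06) and the ZF108-DMS3 plants (2.38) listed the MBD6 site past the threshold. In the 9 lists of RdDM mutants this is 1, beside nrpe1 replicate 2 (1.76) and dms3 replicate 3 (1.61) below it and no peak in either nrpd1 or nrpd1 nrpe1 list. The higher peak of wild-type replicate 2 stood at percentile 84.3 of all nuclear entries in its list, beside 77.7 for the MBD5 upstream peak in the same list. Stricter limits (q value below 0.001, fold enrichment above 3) removed it and kept the MBD5 region. HA peaks of ZF108-DMS3 lay inside MBD6, at 2.62 and 2.54, and not over the tRNA gene. The lists without a tag had none.

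At MBD5 a MORC7-FLAG peak past the threshold overlapped the tRNA gene in wild-type replicate 3 (2.60) and in the ZF108-DMS3 plants (2.25). These peaks were wide, 1294 and 1471 bp, also overlapped MBD5, and had their summits outside the tRNA gene. In wild-type replicate 1 a peak of 1.53 overlapped it. The tRNA gene at MBD5 therefore lay in no MORC7 region. Of all 625 tRNA genes, 8.48% overlapped a MORC7 region, and of 41 tRNA-Gly genes 22.0%. Pol II had a peak that overlapped each copy. At MBD5 these peaks also covered the 3′ end of the gene. Their summits, chr3:17149661 in hex and chr3:17149695 in wild type, lay between MBD5 and the tRNA gene. At MBD6 the summit lay inside the tRNA gene in hex (chr5:23953948) and past it in wild type (chr5:23954163). At MBD5 the fold enrichment was 2.51 in hex and 2.34 in wild type, and at MBD6 2.35 in hex and 2.22 in wild type. Pol II peaks overlapped 28.6% of all tRNA genes in hex and 33.3% in wild type. With 1 Pol II list per genotype, these pairs of values have no replicate check, and each pair was nearly equal. At the start of MBD5 Pol II had a weaker peak of 1.97 in hex and 1.85 in wild type, both below the threshold, and at the start of MBD6 none was listed.

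MBD7, at chr5:24094359-24096532 on the minus strand, had no MORC7 region within 1 kb. Only wild-type replicate 2 had a peak there, of 93 bp and a fold enrichment of 2.46, 783 bp after its end. The other 13 MORC7-FLAG lists and both MORC4-FLAG lists had none, also without a threshold. A MORC7 region did lie 1646 bp from MBD7, at chr5:24091827-24092712, inside the next gene, AT5G59790 (0.94 to 1.35 TPM). It had fold enrichments of 2.68 and 2.45 in wild-type replicates 1 and 2, 1.83 in replicate 3, 2.62 in dms3 replicate 2, 2.17 in nrpe1 replicate 1 and 2.02 in the ZF108-DMS3 plants. Other lists had it below the threshold, at 1.55 in nrpd1 nrpe1 replicate 1, 1.57 in nrpd1 replicate 1, 1.79 and 1.94 in dms3 replicates 1 and 3, 1.84 in nrpe1 replicate 2 and 1.97 in met1. Near MBD7 Pol II had a peak past the threshold in each list, 995 bp after the gene and reaching into AT5G59790 in hex (2.15), and just inside its start in wild type (2.09), where 42.8% and 44.4% of all genes had one. The site after the gene was also listed in wild type, 1013 bp from MBD7, at 1.9 and so below the threshold. At the 3′ end of MBD7 itself both lists had a peak below the threshold, of 1.94 in hex and 1.88 in wild type. At the start of MBD7 the hex list had none. With 1 Pol II list per genotype, differences between them were not tested.

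MOM1, at chr1:2501704-2511084 on the minus strand and with 9381 bp the longest of the 4, had no peak past the threshold within 1 kb in any of the 22 lists. None of the 14 MORC7-FLAG and 2 MORC4-FLAG lists held a peak of any strength within 2 kb of it. Below the threshold, Pol II in wild type (1.52) and HA ChIP of ZF108-DMS3 (1.99) each had a peak at its 3′ end.

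**Figure D5:**
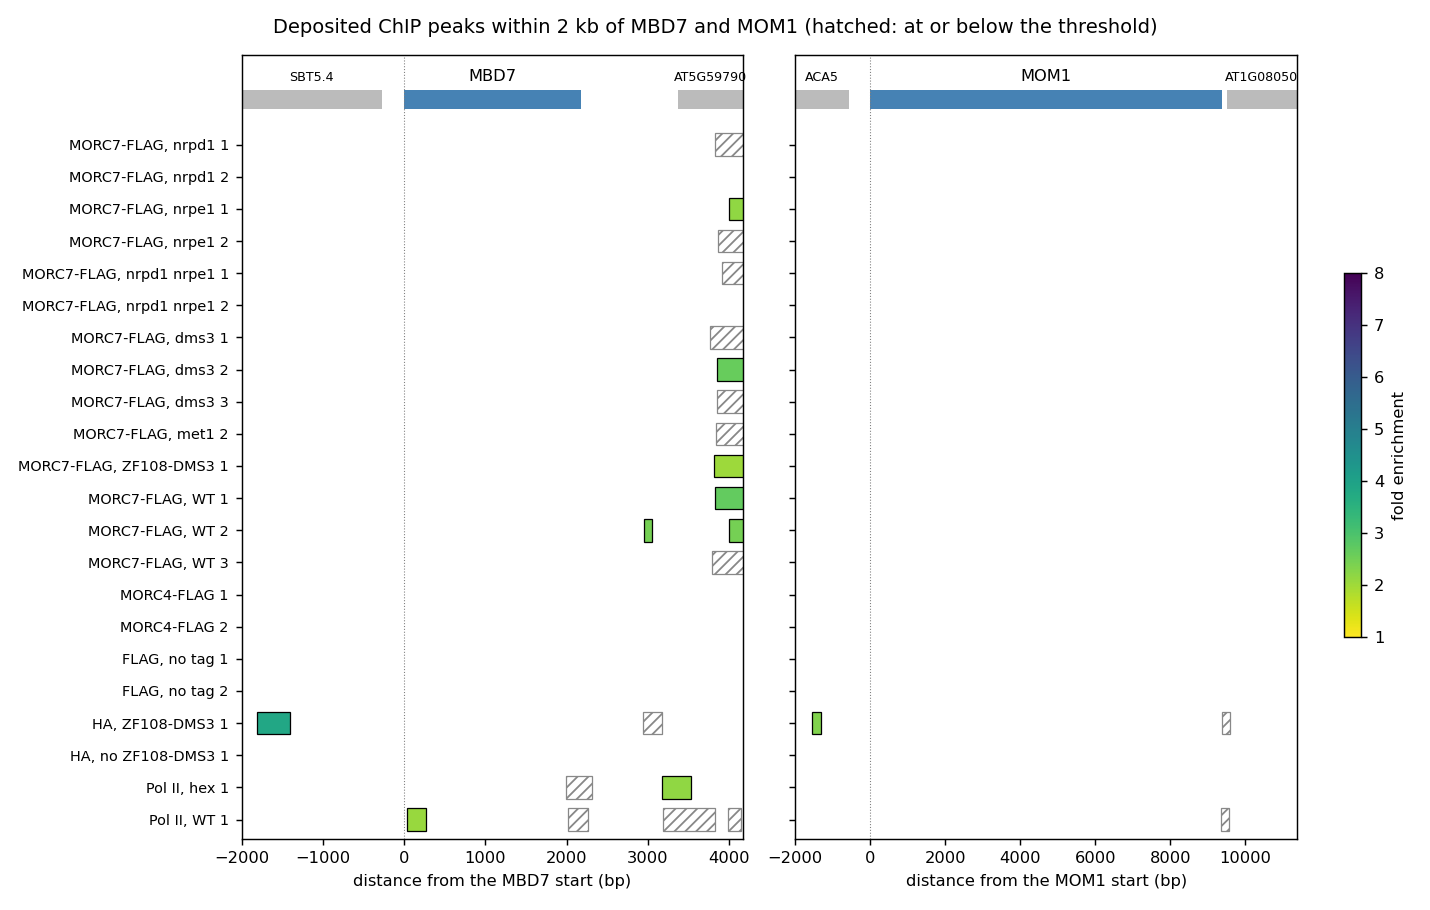
Deposited ChIP peaks within 2 kb of MBD7 (left) and MOM1 (right), as distance in bp from each gene's start in its own direction, drawn and coloured as for MBD5 and MBD6. MORC7-FLAG peaks at MBD7 lie 1584 bp or more after its end, inside AT5G59790, apart from 1 of wild-type (WT) replicate 2 with a fold enrichment of 2.46, and MOM1 has none.

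Across the related genes, a MORC7 region lay within 1 kb of 5 of 13 MBD genes, beside 25.4% of all genes. They were MBD2, MBD5, MBD6, MBD11 and MBD12, and MBD5 was the only one with all 3 lists in its region. MBD12, silent in all RNA-seq libraries, was among them, and so was MBD2. Of the MOM1 partners, CPL2 had a region in all 3 lists with a highest fold enrichment of 7.50, and PIAL1 and PIAL2 had none. Of the MBD7 partners, ROS1 had one in all 3 lists (4.43), and IDM1 and IDM2 had none. MBD5, alone among the 4 genes in having a region in all 3 lists, differed by 0.02 (SE 0.11) in RNA between the libraries labelled hex and wild type, and MOM1, with none, by 0.03 (SE 0.12). The differences between the libraries labelled nrpe1 and wild type were 0.24 (SE 0.11) for MBD5 and 0.15 (SE 0.12) for MOM1. RNA of MORC1, MORC2, MORC6 and MORC7 was lowest in the libraries labelled nrpe1. A link between MORC7 peaks and RNA level was not tested.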

How the data were processed

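ChIP-seq reads were aligned by the authors with Bowtie2 2.1.0 (TAIR10), and only perfect matches to 1 place were retained. Duplicates were taken out with SAMtools 1.9, and peaks were called with MACS2 2.1.1. The deposited lists are 1 per library, although per the methods MORC7 ChIPs were pooled for peak calling. The deposited lists give each peak's fold enrichment (a ratio over background), the −log10 of its q-value and, as another column, its summit offset. Intervals repeated with several summits were kept once, with the highest enrichment, and coordinates are 1-based. For RNA-seq the authors deposited TPM per gene. RSEM 1.3.1 is among the tools in the submitters' notes, and the methods name it for met1 RNA-seq, which is not used here, but not for these libraries. The file of labelled nrpe1 replicate 2 held 2 copies of its table with equal values, and 1 was used.

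A pseudocount of 1 was added to TPM before log2 values were fitted in R 4.3.3 with limma 3.58.1 (lmFit, contrasts.fit, and eBayes using its trend option), in 1 fit over all 3 groups. Genes entered the fit if 3 or more of 9 libraries reached 1 TPM, which left 17459. Peaks on the 5 nuclear chromosomes were handled in Python 3.11.15, and overlaps needed 1 bp. Gene positions and sequences are RefSeq's (TAIR10.1), which placed 32835 of 33602 genes. The procedures were tested on simulated data. The named genes are the 4 members, their 2 most similar genes each, neighbours that share a peak, and per list (MBD family, MOM1 partners, MBD partners) those called or else up to 3 with the largest change. The members and lists were chosen with earlier results of these data known. Alternatives were another pseudocount, no filter, quantile normalization, a replicate block, 6 libraries, no minimum fold, each library left out, and other peak thresholds, distances and library counts.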

Additional observations from a re-analysis of the deposited data

How the results depend on the processing

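No alternative gave a call for any of the 4 genes, so each count stayed at 0 of 4 with a pseudocount of 0.1, no filter, quantile normalization, the replicate block, only 6 libraries, no minimum fold change and each library left out. Of 168 recomputed differences of the 4 genes, 156 kept their sign and 12 changed it, all close to 0. For labelled hex against wild type, quantile normalization gave 0 for MOM1 and -0.01 for MBD5, and leaving out 1 library gave -0.02 to 0.06 for MOM1, -0.07 to 0.10 for MBD5, -0.15 to 0.08 for MBD6 and -0.22 to 0.16 for MBD4. For labelled nrpe1 against wild type, MBD7 was -0.03 with quantile normalization and -0.03 to 0.12 over all alternatives, and NRPE1 -0.19 to 0. Between both labels PIAL2 was 0.03 with quantile normalization and -0.06 to 0.03 over all alternatives, while MBD7 and MBD13 each lay between -0.01 and 0.07.

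The number of all genes called was less stable. For labelled nrpe1 against wild type, 688 became 4015 with no minimum fold change, 58 with no filter, 107 with only 6 libraries and 32 to 1606 with 1 library left out. For labelled hex against wild type, 56 became 32 to 64 with 1 library left out. Between both labels, 104 became 219 with the replicate block and 54 to 929 with 1 library left out. Same-numbered libraries did not all deviate together, with correlations of -0.35 to 0.60 and 3 of 9 above 0.1. Other pairs had -0.63 to 0.45. Whether the numbers pair libraries is not settled by these values, and the block called 0 of 4 genes in each comparison.

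The number of genes with a MORC7 region within 1 kb, 2, became 1 (MBD5) under the stricter threshold and with all 3 lists required, 0 when the region had to overlap the gene, 3 (with MBD7) with 2 kb or any 1 list, and 1 to 2 with 1 wild-type list left out.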
